A study of Mus musculus with 8 samples.

Results

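Poly(A) polymerases, poly(A)-binding proteins (PABPs) and factors of mRNA 3′ end formation were followed through 10 genes, Papola, Papolb, Papolg, Pabpc1, Pabpc2, Pabpn1, Cstf2, Cstf2t, Cpsf6 and Nudt21. They were chosen by name, as the rows that carry these gene symbols, and they are 10 of the 23235 symbols with a value. As background, a pre-mRNA is cleaved near its 3′ end by a complex in which CPSF recognizes the polyadenylation signal, CstF binds downstream of the cut and CFIm binds upstream of it. A poly(A) polymerase then adds the tail, PABPN1 covers it in the nucleus, PABPCs cover it in the cytoplasm, and the CCR4-NOT complex, to which CNOT4 belongs, shortens it again. Male germ cells are known for intronless paralogs of several of these genes, which are expressed in meiotic or haploid cells beside the widely expressed gene.

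RNA was sequenced from spermatocytes of male C57BL/6 mice, which the methods give as 6 weeks old, at the leptotene and zygotene (LZ) and the pachytene and diplotene (PD) stages. The groups were WT LZ, WT PD, Cnot4-null LZ and Cnot4-null PD, with 2 libraries in each, described as biological replicates, and no treatment is named. The Cnot4-null animals are Cnot4 fl/fl;Stra8-Cre, in which Stra8-Cre drives recombination in germ cells, so that other cells of the testis are expected to keep the gene, and the deletion removes exon 2 and shifts the reading frame. Cells were sorted on a Hoechst dye and propidium iodide. The methods describe cDNA amplification from small numbers of sorted cells (Smart-Seq2), whereas the labels describe Trizol extraction and a TruSeq kit, and which of these was used is not known here. The values are FPKM, in which the fragments of a gene are divided by its transcript length and by all mapped fragments, so that genes can be compared with each other. The deposited values hold no read counts, so the number of reads behind each value is not given here.

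The deleted gene, Cnot4, was listed at 36.0 and 34.9 FPKM (WT LZ), 43.2 and 34.6 (Cnot4-null LZ), 76.6 and 73.1 (WT PD), and 65.9 and 53.5 (Cnot4-null PD). Its level was not lost in any Cnot4-null library. A single value per gene cannot show the loss of exon 2, so these levels do not test the genotype, which is taken from the labels.

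Changes were measured as differences of log2(FPKM + 1), on which the change of a gene with low values looks smaller than it is, with 1 limma model over the 8 libraries and 4 residual degrees of freedom. A gene is said to be called when its p, adjusted by the Benjamini-Hochberg method over the 15899 genes that passed an FPKM of 1 in any library, is under 0.05. All 10 genes passed this filter. The log2 change of the median gene was -0.32 from LZ to PD in WT, 0.19 from LZ to PD in Cnot4-null, 0 between the genotypes at LZ and 0.66 between the genotypes at PD. Changes relative to the median are therefore given beside the fitted ones. In bulk samples, fewer cells of a type and less RNA per cell cannot be told apart.

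The libraries of the genotypes at PD stood apart in markers of cell types, which were summed as FPKM over each list. Beside the calls of each list, 41.6% of all genes tested were called higher and 11.5% lower in Cnot4-null PD. The list of pachytene-diplotene spermatocytes summed to 12402 and 11509 FPKM (WT PD) and to 5814 and 2030 (Cnot4-null PD), with Ldhc as its most abundant gene in all 4, and 2 of its 8 genes were called lower and 0 higher. Leydig cell markers summed to 116 and 7.07 FPKM (WT PD) and to 10077 and 22282 (Cnot4-null PD), led by Insl3, with 7 of 7 called higher. In WT LZ and Cnot4-null LZ the Leydig sums were 17.2 and 9.89 and 10.8 and 19.02 FPKM, and those of the pachytene-diplotene list were 263 and 361 and 277 and 116. The Leydig list was thus highest in both Cnot4-null PD libraries.

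Spermatid markers summed to 417 and 260 FPKM (WT PD) and to 15840 and 7187 (Cnot4-null PD), with Prm1 as the most abundant gene in each of these libraries but WT PD replicate 2, where it was Prm2, and with 7 of 7 called higher. Spermatogonial markers summed to 15.4 and 8.67 FPKM (WT PD) and to 312.9 and 436 (Cnot4-null PD), led by Uchl1, with 6 of 6 called higher. At LZ the sums were 710 and 677 in WT and 457 and 640 in Cnot4-null for spermatogonial markers, and 1835 and 1521 in WT and 4043 and 713 in Cnot4-null for spermatid markers. Both WT PD libraries were thus below the other 6 for both lists. Of the leptotene-zygotene list, in which Hormad1 was the most abundant gene in WT PD and Stra8 in the other groups, 3 of 5 genes were called higher and 2 lower in Cnot4-null PD, and its sum was 336 and 373 FPKM (WT PD), 399 and 255 (Cnot4-null PD), 571 and 605 (WT LZ), and 1081 and 624 (Cnot4-null LZ).

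Peritubular markers, of which Acta2 was the most abundant in Cnot4-null PD and Tagln in the other groups, were called higher in Cnot4-null PD for 5 of 5 genes, with sums of 3.89 and 2.39 FPKM (WT PD), 63.9 and 293 (Cnot4-null PD), 4.09 and 5.15 (WT LZ), and 3.35 and 1.88 (Cnot4-null LZ). Macrophage markers, of which Lyz2 was the most abundant in Cnot4-null PD, were called higher for 4 of 8, which is near the 41.6% of all genes. Their sums were 3.25 and 2.96 FPKM (WT PD) and 31.9 and 137 (Cnot4-null PD), and C1qa and C1qc had a value of 0 in WT PD. In the other groups macrophage sums were 42.2 and 1.03 FPKM (WT LZ) and 15.5 and 5.12 (Cnot4-null LZ). Sertoli markers, of which Clu was the most abundant at PD and Ctsl at LZ, summed to 15.5 and 29.1 FPKM (WT PD), 137 and 255 (Cnot4-null PD), 160 and 126 (WT LZ), and 129 and 93.6 (Cnot4-null LZ). Of the 5 tested, 3 were called higher and 1 lower in Cnot4-null PD, beside 41.6% and 11.5% of all genes. The defining markers Amh and Fshr had a value of 0 in WT PD and lay below 1 FPKM in all 8 libraries. Endothelial markers, of which Cdh5 was the most abundant in Cnot4-null PD, summed to 0.298 and 0.195 FPKM (WT PD), 1.65 and 7.29 (Cnot4-null PD), 0.272 and 0.0331 (WT LZ), and 0.416 and 0.454 (Cnot4-null LZ), with Kdr at 0 in WT PD. Of the 2 tested, 1 was called higher, which is near the 41.6% of all genes. The part that these markers play in the results below was not tested.

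**Figure D1:**
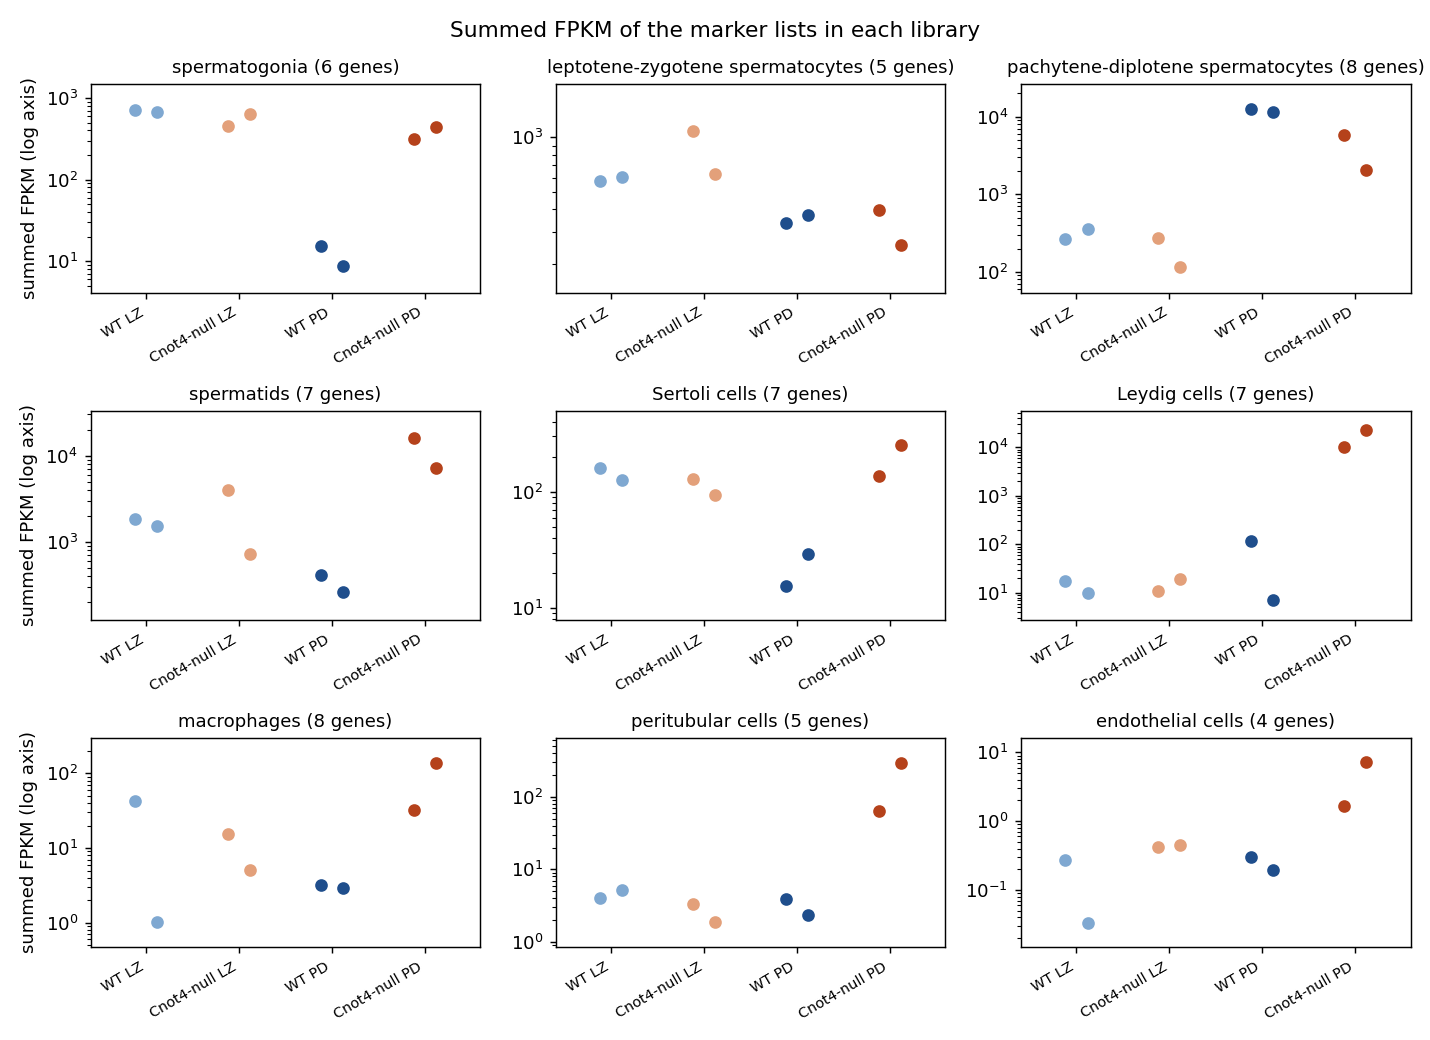
Summed FPKM (log axis) of 9 marker lists in each library, with 1 point per library and the number of listed genes in each title. The Cnot4-null PD libraries are the highest for the Leydig cell list, at 10077 and 22282 FPKM, and lie below both WT PD libraries for the pachytene-diplotene list.

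From LZ to PD in WT, 4 of the 10 genes were called higher and 6 lower, against 21.6% and 36.2% of all genes tested. With all libraries rescaled to 1 median, the 10 genes had 4 called higher and 3 lower, and the balance of all genes turned from 3436 higher and 5754 lower to 5174 higher and 4265 lower. The genes that rose were Papolb, Pabpc1, Pabpc2 and Cstf2t, and those that fell were Papola, Papolg, Pabpn1, Cstf2, Cpsf6 and Nudt21, of which Pabpn1 and Nudt21 changed direction when the libraries were rescaled to the same median. The same step in Cnot4-null had 3 of the 10 called higher and 5 lower, against 27.8% and 18.2% of all genes. These shares of all genes depended on the scaling and on the filter. After quantile normalization 2974 were called higher and 4986 lower (3 and 4 of the 10), and after rescaling 3326 and 5183 (2 and 5 of the 10). With a mean FPKM of at least 5 they were 2552 and 2627 (3 and 5 of the 10). Pabpn1 and Cstf2t were not called from LZ to PD in Cnot4-null. Both changed direction there after rescaling, Pabpn1 also after quantile normalization. Between the genotypes at LZ, limma called 0 of the 10, against 0.0943% of all genes, and 1 of the 10, Pabpc2, had an unadjusted p under 0.05, as had 1013 of all 15899. Between the genotypes at PD, 3 of the 10 were called higher (Pabpn1, Cstf2 and Cpsf6) against 41.6% of all genes, and 1 was called lower (Pabpc2) against 11.5%, with Pabpn1 and Cpsf6 changing direction after rescaling and Cpsf6 also after quantile normalization. This split depended on the scaling, with 2 of the 10 called higher and 4 lower after quantile normalization (2835 and 4078 of all genes) and 1 higher and 7 lower after rescaling (3704 and 6378 of all genes). Without WT PD replicate 1 or WT PD replicate 2, fewer of the 10 genes were called between the genotypes, and fewer of all genes were. Pabpc2 was no longer called lower in either case. Without Cnot4-null PD replicate 1, more of the 10 genes were called lower, with Pabpc1 and Cstf2t among them. Without Cnot4-null PD replicate 2, fewer were called lower. The lower calls of all genes moved the same way in both cases. From LZ to PD in Cnot4-null, fewer of the 10 genes were called when any library but Cnot4-null PD replicate 2 was left out, and fewest without Cnot4-null LZ replicate 2. Fewer of all genes were called when any LZ or WT PD library was left out, and fewest without Cnot4-null LZ replicate 1. Both stage comparisons and both genotype comparisons share libraries with each other, so they are not independent.

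**Figure D2:**
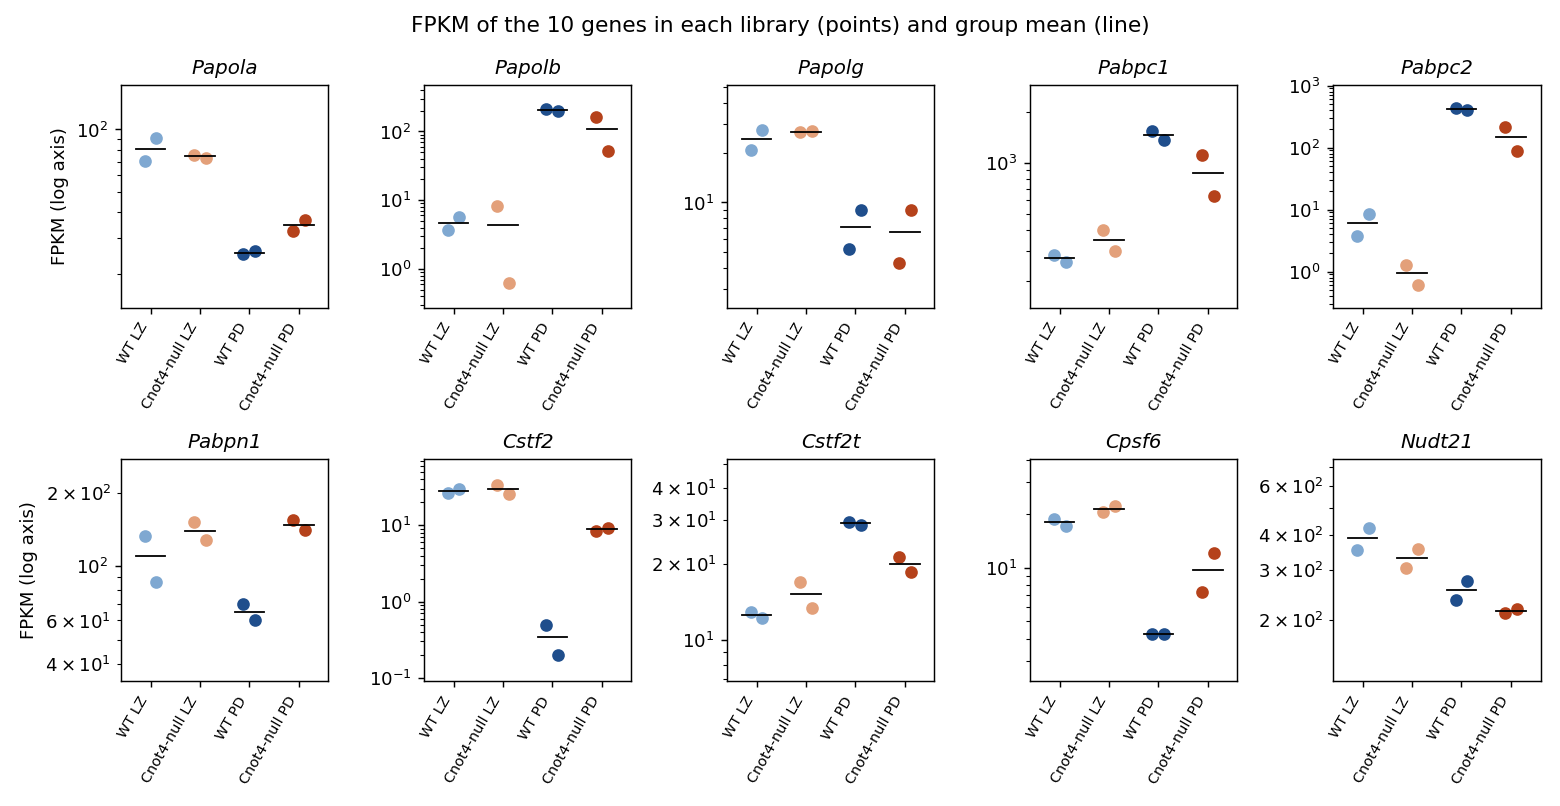
FPKM (log axis, a separate scale for each gene) of the 10 genes in the 8 libraries, with 1 point per library and a line at the group mean. Papolb and Pabpc2 lie below 10 FPKM in all 4 LZ libraries and above 50 in all 4 PD libraries, and Cstf2 lies below 1 FPKM only in the WT PD libraries.

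**Figure D3:**
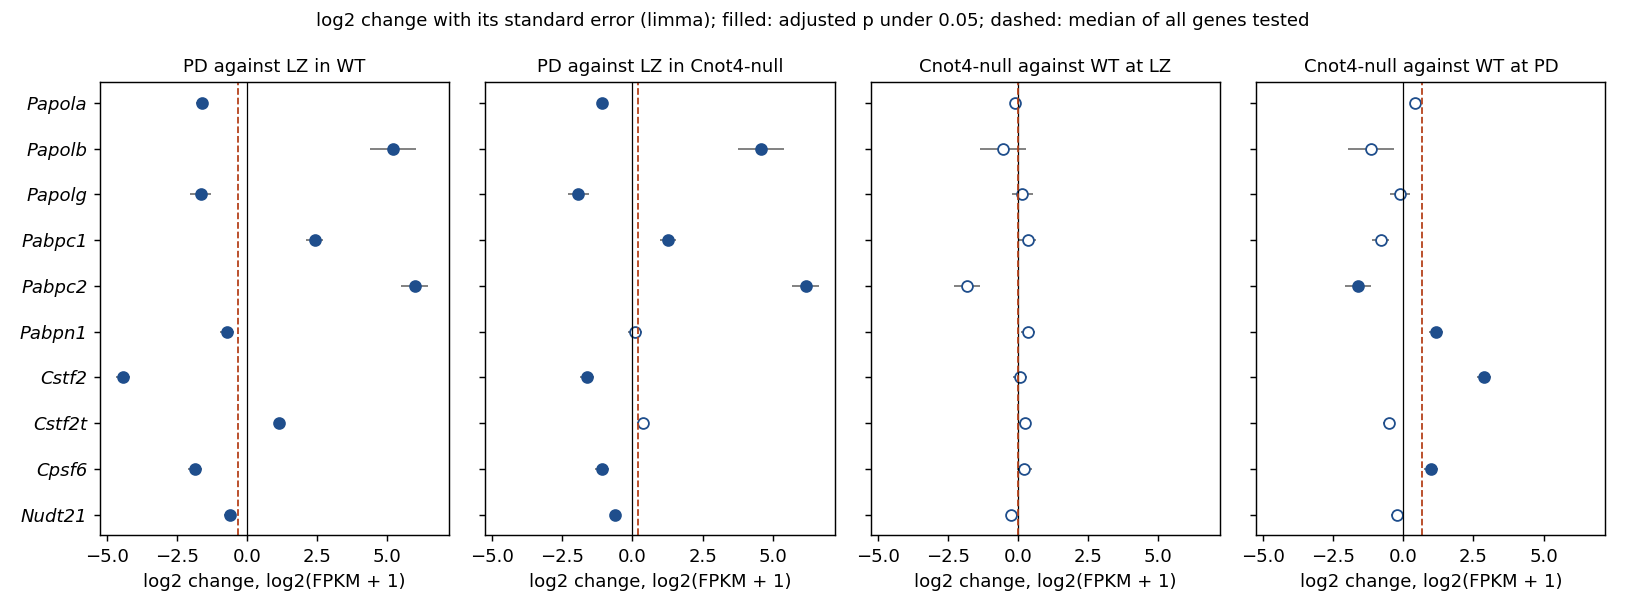
Log2 change of each gene in the 4 comparisons between 2 groups, on the log2(FPKM + 1) scale, with its standard error from limma. Filled points have an adjusted p under 0.05, and the dashed line marks the median of all genes tested, which is at 0.66 between the genotypes at PD. After rescaling to the same median, Pabpn1 and Nudt21 from LZ to PD in WT, Pabpn1 and Cstf2t in Cnot4-null, and Papola, Pabpn1 and Cpsf6 between the genotypes at PD change direction, as do Pabpn1 in Cnot4-null and Cpsf6 and Nudt21 at PD after quantile normalization.

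Of the poly(A) polymerases, Papola, the widely expressed nuclear enzyme, was listed at 70.2 and 90.5 FPKM (WT LZ) and 75.5 and 73.0 (Cnot4-null LZ). It was at 25.1 and 25.9 FPKM (WT PD) and 32.4 and 36.5 (Cnot4-null PD). The 4 LZ libraries were above the 4 PD libraries, and the PD values of Cnot4-null were all above those of WT. Its log2 change between the stages was -1.61 in WT (limma, standard error 0.19, adjusted p = 0.000326) and -1.09 in Cnot4-null (adjusted p = 0.00406), or -1.29 and -1.27 relative to the median. After rescaling to the same median these were -0.75 (adjusted p = 0.0107) and -1.66 (adjusted p = 0.000655). The genotypes differed at PD by 0.42 (limma, standard error 0.19, adjusted p = 0.103) and -0.24 relative to the median, and this difference turned to -0.97 with an adjusted p of 0.00339 after rescaling all libraries to 1 median. Over all alternatives the adjusted p at PD ranged from 0.00339 to 0.517.

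Papolb encodes the testis-specific polymerase and has no intron. It was listed at 3.65 and 5.66 FPKM (WT LZ), 8.19 and 0.621 (Cnot4-null LZ), 209 and 201 (WT PD), and 163 and 51.6 (Cnot4-null PD). All 4 PD libraries were far above the LZ libraries, and the Cnot4-null duplicates lay further apart than the WT duplicates at both stages. Between LZ and PD the log2 change was 5.21 in WT (limma, standard error 0.82, adjusted p = 0.00116) and 4.59 in Cnot4-null (adjusted p = 0.00403), or 5.53 and 4.40 relative to the median. Cnot4-null PD lay below WT PD in both libraries, with a log2 change of -1.15 (limma, adjusted p = 0.258) that was called after rescaling to the same median (-2.57, adjusted p = 0.0241) and was not called under the other alternatives. It was -1.97 without Cnot4-null PD replicate 1 and -0.33 without Cnot4-null PD replicate 2. Over all alternatives the adjusted p at PD ranged from 0.0241 to 0.813.

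Papolg, a further nuclear polymerase, was at 20.7 and 27.5 FPKM (WT LZ), 26.8 and 26.9 (Cnot4-null LZ), 5.25 and 9.03 (WT PD), and 4.31 and 9.03 (Cnot4-null PD). It was lower in the 4 PD libraries than in the 4 LZ libraries, and the genotypes overlapped at PD. The stages differed on the log2 scale by -1.65 in WT (limma, standard error 0.37, adjusted p = 0.00632) and -1.93 in Cnot4-null (adjusted p = 0.00523). The WT call was lost without WT PD replicate 1 (-1.31, adjusted p = 0.0546) and after rescaling to the same median (-0.85, adjusted p = 0.0726). At PD the genotypes differed by -0.12, or -0.78 relative to the median, with a limma adjusted p of 0.801. Its sign turned without WT PD replicate 2 (0.22) or Cnot4-null PD replicate 1 (0.34), and it was -0.46 without WT PD replicate 1 and -0.58 without Cnot4-null PD replicate 2, while after quantile normalization it was called lower (-1.18, adjusted p = 0.0444), as it was after rescaling (-1.36, adjusted p = 0.0119). Over all alternatives the adjusted p ranged from 0.00264 to 0.0726 for the WT change and from 0.0119 to 0.990 at PD. In WT LZ the order of the levels was Papola above Papolg above Papolb in each library, and in WT PD it was Papolb above Papola above Papolg, with no overlap between neighbours in either group.

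Papola and Papolb are alike in sequence, which bears on how reads could be assigned. Papola spans chr12:107018512-107077154 on the forward strand of mm9 with 22 exons, and Papolb spans chr5:143001792-143006030 on the reverse strand with 1 exon (longest coding transcripts, GENCODE vM1). Their aligned coding bases are 85.2% identical. Of the windows of 50 bases, the trimmed read length, 16 are shared by both transcripts, which is 0.369% of the windows of Papola and 0.382% of those of Papolb, so few reads could come from either gene. The first 30 aligned coding bases that lie in 1 exon of each gene, at chr12:107037861-107037890 (forward) and chr5:143005800-143005829 (reverse), are shown 5′ to 3′ to show how close the genes are, with the 8 bases that differ in capitals.
Papola: tCcAgtTacAacGcaGggaTcacaacaaAc
Papolb: tGcGgtGacCacCcaAggaGcacaacaaCc

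Of the PABPs, Pabpc1, which encodes the main cytoplasmic PABP, was at 287 and 259 FPKM (WT LZ), 399 and 301 (Cnot4-null LZ), 1546 and 1365 (WT PD), and 1106 and 632 (Cnot4-null PD). The 4 PD libraries were above the 4 LZ libraries, and the genotypes did not overlap at either stage. The log2 change between the stages was 2.41 in WT (limma, standard error 0.30, adjusted p = 0.00038) and 1.27 in Cnot4-null (adjusted p = 0.0123), or 2.73 and 1.08 relative to the median. In Cnot4-null the call was lost without Cnot4-null LZ replicate 2 (1.06, adjusted p = 0.0872) and after rescaling to the same median (0.68, adjusted p = 0.0982). At PD the change between the genotypes was -0.80 (limma, standard error 0.30, adjusted p = 0.0574), or -1.46 relative to the median. It was -0.39 without Cnot4-null PD replicate 2, and it was called lower without Cnot4-null PD replicate 1 (-1.20, adjusted p = 0.00801), with a block for the replicate number (adjusted p = 0.0248), after quantile normalization (-0.64, adjusted p = 0.0124) and after rescaling to the same median (-2.23, adjusted p = 0.000851). The adjusted p over all alternatives was 0.000853 to 0.0982 for the stage change in Cnot4-null and 0.000851 to 0.247 at PD.

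Pabpc2 encodes a cytoplasmic PABP of the testis and has no intron. It was at 3.72 and 8.52 FPKM (WT LZ), 1.26 and 0.618 (Cnot4-null LZ), 434 and 407 (WT PD), and 211 and 88.2 (Cnot4-null PD). The stages were far apart in both genotypes, and Cnot4-null lay below WT at each stage. Between LZ and PD the log2 change was 5.97 in WT (limma, standard error 0.47, adjusted p = 5.78e-05) and 6.17 in Cnot4-null (adjusted p = 0.000334), or 6.29 and 5.98 relative to the median. The change between the genotypes was -1.81 at LZ (limma, unadjusted p = 0.00608, adjusted p = 0.598) and -1.62 at PD (adjusted p = 0.0248), or -2.28 relative to the median at PD and -3.05 after rescaling to the same median. The call at PD was lost with no filter on genes (limma, adjusted p = 0.0872) and with only the libraries compared (0.0711). It was also lost without WT PD replicate 1 (-1.57), WT PD replicate 2 (-1.66) or Cnot4-null PD replicate 2 (-0.99). The adjusted p at PD was 0.00134 to 0.139 over all alternatives.

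Pabpn1, whose protein binds the tail in the nucleus, was at 133 and 86.5 FPKM (WT LZ), 151 and 128 (Cnot4-null LZ), 69.8 and 60.2 (WT PD), and 155 and 141 (Cnot4-null PD). WT PD was the lowest group, with both values below those of the other 6 libraries. The stage change on the log2 scale was -0.72 in WT (limma, standard error 0.24, adjusted p = 0.0377) and 0.08 in Cnot4-null (adjusted p = 0.798), or -0.40 and -0.10 relative to the median. The WT change turned to 0.16 after rescaling to the same median, and that in Cnot4-null to -0.032 after quantile normalization, to -0.50 after rescaling, and to -0.036 without Cnot4-null LZ replicate 2, and it was 0.20 without Cnot4-null LZ replicate 1, 0.02 without Cnot4-null PD replicate 1 and 0.15 without Cnot4-null PD replicate 2. The WT call was also lost without WT LZ replicate 1 (-0.41, adjusted p = 0.224), WT PD replicate 1 (adjusted p = 0.0887), WT PD replicate 2 (0.183), Cnot4-null LZ replicate 1 (0.0595), Cnot4-null LZ replicate 2 (0.0597) or Cnot4-null PD replicate 1 (0.0516). Cnot4-null PD differed from WT PD by 1.17 (limma, standard error 0.24, adjusted p = 0.00695), or 0.51 relative to the median. It turned to -0.25 after rescaling to the same median and lost the call without WT PD replicate 2 (1.07, adjusted p = 0.0579). The interaction of genotype and stage was not called for Pabpn1 (0.80, limma, adjusted p = 0.117), so the stage change was not shown to differ between the genotypes. The adjusted p over all alternatives was 0.0117 to 0.630 for the WT stage change, 0.121 to 0.975 for that in Cnot4-null and 0.0043 to 0.394 for the genotypes at PD.

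The other PABPs of the list were measured beside these genes. Pabpc6, a further intronless cytoplasmic PABP, was at 4.61 and 10.5 FPKM (WT LZ), 3.43 and 1.47 (Cnot4-null LZ), 534 and 468 (WT PD), and 220.2 and 85.3 (Cnot4-null PD). Its libraries followed the same order of groups as Pabpc2. The log2 change was 5.96 from LZ to PD in WT (limma, adjusted p = 9.06e-05), 5.38 in Cnot4-null (adjusted p = 0.000515) and -1.86 between the genotypes at PD (adjusted p = 0.0224), the last being -3.29 after rescaling to the same median. The last call was lost with no filter on genes (limma, adjusted p = 0.0851) and with only the libraries compared (0.0631). It was also lost without WT PD replicate 1 (-1.76), WT PD replicate 2 (-1.95) or Cnot4-null PD replicate 2 (-1.18). Its adjusted p was 0.00146 to 0.137 over all alternatives.

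Pabpc4, a cytoplasmic PABP of many tissues, went the other way, at 10.7 and 6.47 FPKM (WT LZ), 10.8 and 9.98 (Cnot4-null LZ), 0.182 and 0.153 (WT PD), and 2.42 and 4.73 (Cnot4-null PD). WT PD was the lowest group, and Cnot4-null PD lay between it and the LZ libraries. The log2 change was -3.00 from LZ to PD in WT (limma, adjusted p = 0.000261), -1.36 in Cnot4-null (adjusted p = 0.0159) and 1.92 between the genotypes at PD (adjusted p = 0.00381), the last falling to 0.70 with an adjusted p of 0.129 after quantile normalization. The first and the last were -4.98 and 3.71 with a pseudocount of 0.1, and the change in Cnot4-null was -2.09 after quantile normalization. In Cnot4-null the call was lost without Cnot4-null LZ replicate 1 (adjusted p = 0.0812), Cnot4-null LZ replicate 2 (0.0634) or Cnot4-null PD replicate 1 (-0.99, adjusted p = 0.0573). Over all alternatives the adjusted p was 0.00236 to 0.0812 for the change in Cnot4-null and 0.000759 to 0.129 at PD. Zc3h14, a nuclear zinc finger protein that binds poly(A), was at 58.6 and 63.0 FPKM (WT LZ), 56.7 and 48.9 (Cnot4-null LZ), 76.5 and 83.5 (WT PD), and 61.1 and 35.9 (Cnot4-null PD). Both WT PD values were above the other 6. The change between the genotypes at PD was -0.76 (limma, adjusted p = 0.045), which was not called without any of the libraries but Cnot4-null PD replicate 1. It was -0.38 without Cnot4-null PD replicate 2 and -2.17 after rescaling to the same median (limma, adjusted p = 0.000622). The call was also lost with no filter on genes (limma, adjusted p = 0.091), with no trend (0.0615) and with only the libraries compared (0.129). Its adjusted p was 0.000622 to 0.181 over all alternatives. Pabpc1l, Pabpn1l, Pabpc4l and Pabpc5 were each below 2 FPKM in all 8 libraries.

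Reads of the PABPs can be hard to place. Pabpc1 spans chr15:36525416-36538728 on the reverse strand with 15 exons, and 32.9% of the 50-base windows of its transcript are also found elsewhere in the genome. For Pabpc2, on chromosome 18, and for Pabpc6, on chromosome 17, no such window was found, and neither shares a window of 50 bases with Pabpc1, although the coding bases aligned are 83.1% and 83.3% identical to those of Pabpc1. The authors kept uniquely mapped reads, so the level of Pabpc1 is uncertain against that of other genes. Its comparison between groups is uncertain too as far as reads of its copies could be counted with it.

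Of the CstF subunits that bind RNA downstream of the cleavage site, Cstf2 was at 26.3 and 29.4 FPKM (WT LZ), 33.9 and 25.4 (Cnot4-null LZ), 0.494 and 0.198 (WT PD), and 8.45 and 9.25 (Cnot4-null PD). WT PD was near 0, Cnot4-null PD was between WT PD and the LZ libraries, and the genotypes overlapped at LZ. The stages differed on the log2 scale by -4.43 in WT (limma, standard error 0.24, adjusted p = 2.05e-05) and -1.62 in Cnot4-null (adjusted p = 0.00214), or -4.11 and -1.81 relative to the median. At PD the genotypes differed by 2.88 (limma, standard error 0.24, adjusted p = 0.000242), or 2.22 relative to the median. The interaction of genotype and stage tests whether the stage change differs, and it was 2.81 (limma, standard error 0.35, adjusted p = 0.00247). Of the 10 genes 1, Cstf2, was called for the interaction, against 30% of all genes tested. Without Cnot4-null PD replicate 1, more of the 10 and more of all genes were called. After quantile normalization 1 of the 10 was called higher and 2 lower (1548 and 1966 of all genes). After rescaling it was 1 higher and 5 lower (2167 and 5146 of all genes). Each of these 4 changes of Cstf2 kept its direction and its call under all alternatives run for it, 17 for each of the first 3 and 16 for the interaction. From quantile normalization to a pseudocount of 0.1, the genotype change ranged from 1.77 to 4.41 and the interaction from 1.68 to 4.33.

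Cstf2 lies on the X chromosome, at chrX:130593726-130621358 on the forward strand with 16 exons. The 648 X-linked genes tested had a median log2 change from LZ to PD of -1.77 in WT, against -0.31 for 14544 autosomal genes. In Cnot4-null the medians were -0.35 and 0.17. For the genotypes at PD the medians were 1.95 on the X and 0.61 on the autosomes, with 74.4% and 40.5% of genes called higher. The rise of Cstf2 between the genotypes at PD was above that of 490 of the other X-linked genes and below that of 157. It was thus in the upper range of the X-linked genes but not at its top. For the interaction of genotype and stage the medians were 1.93 on the X and 0.59 on the autosomes. Of the X-linked genes 54.2% were called higher for it, and of the autosomal genes 25.2%. The interaction of Cstf2 was above that of 490 of the other X-linked genes and below that of 157.

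Cstf2t, the intronless autosomal paralog of Cstf2, was at 12.9 and 12.2 FPKM (WT LZ), 17.0 and 13.4 (Cnot4-null LZ), 29.5 and 28.7 (WT PD), and 21.4 and 18.6 (Cnot4-null PD). The order of the groups was WT LZ, Cnot4-null LZ, Cnot4-null PD and WT PD from lowest to highest, with no overlap between neighbours. The stage change on the log2 scale was 1.15 in WT (limma, standard error 0.20, adjusted p = 0.0021) and 0.38 in Cnot4-null (adjusted p = 0.161), the latter turning to -0.18 after rescaling to the same median and falling to 0.22 without Cnot4-null LZ replicate 2, and the changes relative to the median were 1.47 and 0.20. After rescaling the change in WT was 2.01. The interaction of -0.77 was not called (limma, adjusted p = 0.0815). Its change in Cnot4-null PD against WT PD was -0.52 (limma, standard error 0.20, adjusted p = 0.0639), or -1.19 relative to the median. It was called lower without Cnot4-null PD replicate 1 (-0.62, adjusted p = 0.0365), with no filter on genes (adjusted p = 0.0407), after quantile normalization (-0.84, adjusted p = 0.011) and after rescaling to the same median (-1.90, adjusted p = 0.000447). The adjusted p at PD was 0.000447 to 0.228 over all alternatives.

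Cstf2t spans chr19:31157331-31161080 on the forward strand with 1 exon. It shares no window of 50 bases with Cstf2, and their aligned coding bases are 74.3% identical, so reads of one could hardly be counted for the other. The first 30 coding bases of each gene, at chrX:130593904-130593933 and chr19:31157556-31157585 (both forward strand of mm9), are shown 5′ to 3′ with the 7 bases that differ in capitals.
Cstf2: atgGcgGgtttgCcAgtGagagacccTgcG
Cstf2t: atgTcgAgtttgGcGgtCagagacccAgcC

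Of the CFIm subunits, Cpsf6, the larger partner of the complex, was at 18.8 and 17.2 FPKM (WT LZ), 20.4 and 22.1 (Cnot4-null LZ), 4.27 and 4.26 (WT PD), and 7.35 and 12.1 (Cnot4-null PD). The LZ libraries were above the PD libraries, and at both stages Cnot4-null values were above WT values. On the log2 scale the stage change was -1.85 in WT (limma, standard error 0.26, adjusted p = 0.000672) and -1.09 in Cnot4-null (adjusted p = 0.0127), or -1.53 and -1.27 relative to the median. After rescaling to the same median the change in WT was -1.09, and that in Cnot4-null was -1.61. The call in Cnot4-null was lost without Cnot4-null LZ replicate 1 (-1.14, adjusted p = 0.0542) or Cnot4-null LZ replicate 2 (-1.03, adjusted p = 0.0676). In Cnot4-null PD against WT PD it changed by 0.99 (limma, standard error 0.26, adjusted p = 0.0164), or 0.33 relative to the median, and it turned to -0.050 after quantile normalization and to -0.25 after rescaling to the same median. This call was lost without WT PD replicate 1 (adjusted p = 0.0873) or WT PD replicate 2 (adjusted p = 0.0883), and the interaction of 0.76 was not called (limma, adjusted p = 0.151). The adjusted p over all alternatives was 0.00192 to 0.0764 for the stage change in Cnot4-null and 0.0024 to 0.908 for the genotypes at PD.

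Nudt21, the CFIm subunit that binds the upstream RNA element, was at 353 and 426 FPKM (WT LZ), 306 and 356 (Cnot4-null LZ), 234 and 274 (WT PD), and 212 and 218 (Cnot4-null PD). The LZ libraries were above the PD libraries, and the PD values of Cnot4-null were all below those of WT. The log2 change between the stages was -0.61 in WT (limma, standard error 0.20, adjusted p = 0.0302) and -0.62 in Cnot4-null (adjusted p = 0.0373), or -0.30 and -0.80 relative to the median, and the WT change turned to 0.27 after rescaling to the same median and was -1.14 after quantile normalization, while that in Cnot4-null was -1.21 after rescaling. In WT the call was lost without WT LZ replicate 1 (-0.75, adjusted p = 0.054), WT LZ replicate 2 (-0.48, 0.167), WT PD replicate 1 (-0.50, 0.177) or WT PD replicate 2 (-0.73, 0.0683). In Cnot4-null the call was lost without any library but Cnot4-null PD replicate 2. It was also lost after quantile normalization (-0.68, limma, adjusted p = 0.0778), with no trend (0.0597) and with only the libraries compared (0.117). With no trend the WT call was lost too (limma, adjusted p = 0.0508). Against WT PD, Cnot4-null PD was at -0.24 (limma, adjusted p = 0.328), or -0.90 relative to the median (-0.12 without WT PD replicate 2), turning to 0.14 after quantile normalization and called lower after rescaling to the same median (-1.67, adjusted p = 0.000698). The adjusted p over all alternatives was 0.0103 to 0.317 for the WT stage change, 0.00307 to 0.178 for that in Cnot4-null and 0.000698 to 0.728 at PD. Of the 1062 windows of 50 bases in the Nudt21 transcript, 970 are found elsewhere in the genome, with 970 matches on chromosome 3 and 1 on chromosome 2, while the gene spans chr8:96543303-96560939. Only 8.66% of its windows are unique, so its FPKM is uncertain where uniquely mapped reads are counted, and it is the least certain level of the 10 genes.

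The intronless genes and their paralogs were set against each other as differences of log2(FPKM + 1) within a library. For Papolb minus Papola the difference was -3.94 and -3.78 (WT LZ), -3.06 and -5.51 (Cnot4-null LZ), 3.01 and 2.91 (WT PD), and 2.29 and 0.49 (Cnot4-null PD). The difference was negative in the 4 LZ libraries and positive in the 4 PD libraries. From LZ to PD it moved by 6.82 in WT and 5.67 in Cnot4-null, and at PD it was lower in Cnot4-null by -1.57 (-0.67 without Cnot4-null PD replicate 2 and -2.47 without Cnot4-null PD replicate 1). For Pabpc2 minus Pabpc1 it was -5.93 and -4.77 (WT LZ), -7.47 and -7.54 (Cnot4-null LZ), -1.83 and -1.74 (WT PD), and -2.38 and -2.83 (Cnot4-null PD), so Pabpc1 had the higher listed value in all 8 libraries, with the uncertainty of its level given above. It moved by 3.56 from LZ to PD in WT, by 4.90 in Cnot4-null and by -0.82 between the genotypes at PD.

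For Cstf2t minus Cstf2 the difference was -0.97 and -1.21 (WT LZ), -0.96 and -0.87 (Cnot4-null LZ), 4.35 and 4.63 (WT PD), and 1.24 and 0.94 (Cnot4-null PD). As plain ratios of FPKM, Cstf2t over Cstf2 was 0.492 and 0.414 (WT LZ), 0.501 and 0.528 (Cnot4-null LZ), 59.8 and 145 (WT PD), and 2.53 and 2.02 (Cnot4-null PD). The WT PD ratios divide by Cstf2 values of 0.494 and 0.198 FPKM, so their size is uncertain. Cstf2t was thus the less abundant gene at LZ and the more abundant at PD in both genotypes, by far more in WT PD than in Cnot4-null PD. The difference moved by 5.58 from LZ to PD in WT, by 2.01 in Cnot4-null and by -3.40 between the genotypes at PD. In exact two-sided permutation tests over the libraries, the p was 0.333 for each of the 3 pairs in each of the comparisons from LZ to PD and between the genotypes at PD, and 2 libraries against 2 cannot give a smaller p. The directions from LZ to PD and at PD were the same with a pseudocount of 0.1, after quantile normalization and without each library in turn. Between the genotypes at LZ the differences moved by -0.43 for Papolb minus Papola (exact permutation p = 1), by -2.16 for Pabpc2 minus Pabpc1 and by 0.17 for Cstf2t minus Cstf2 (exact permutation p = 0.333 for both).

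**Figure D4:**
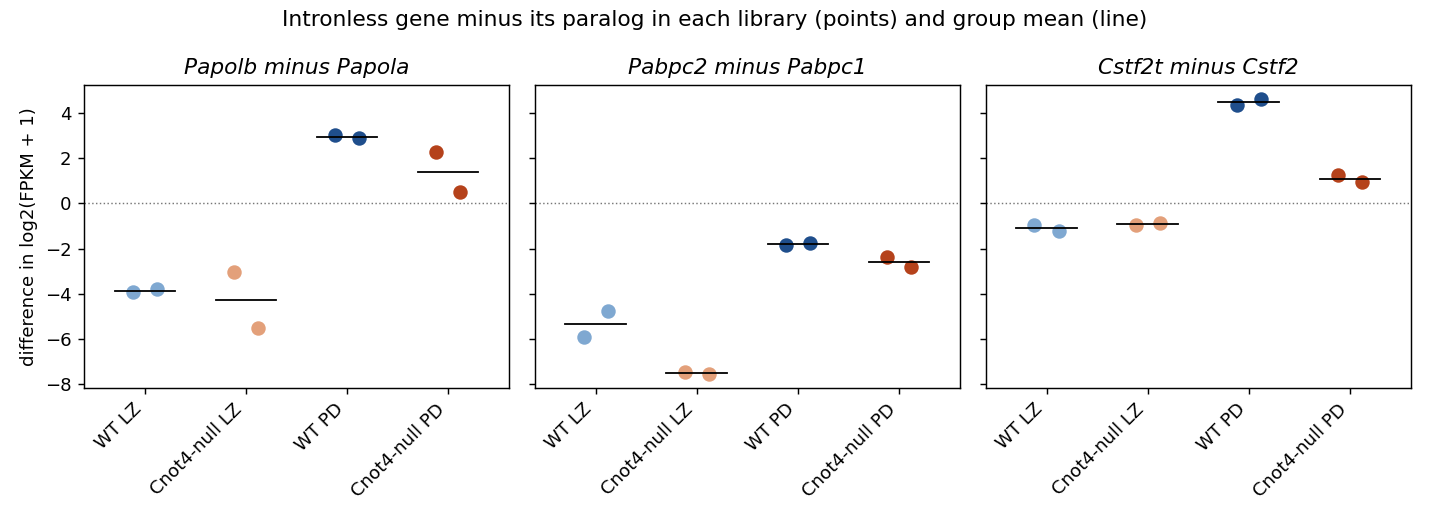
Difference in log2(FPKM + 1) between each intronless gene and its paralog in the 8 libraries, with 1 point per library and a line at the group mean. Papolb minus Papola and Cstf2t minus Cstf2 are below 0 at LZ and above 0 at PD, and Cstf2t minus Cstf2 is 4.35 and 4.63 in WT PD against 1.24 and 0.94 in Cnot4-null PD.

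Outside the 10 genes, the lists of the pathway held 35 others, of which 33 passed the filter. From LZ to PD in WT, 7 of the 33 were called higher and 17 lower, beside 21.6% and 36.2% of all genes. Their median log2 change was -0.68 against -0.32 over all genes. Fewer of the 33 and fewer of all genes were called when any LZ or WT PD library was left out, and fewest without WT PD replicate 1 or WT PD replicate 2. After quantile normalization 8 were called higher and 13 lower (4120 and 4815 of all genes), and after rescaling to the same median 9 higher and 7 lower (5174 and 4265 of all genes). The CPSF list, the complex that reads the polyadenylation signal, had 5 of 8 called lower and 0 higher, beside the same shares of all genes (4 lower after quantile normalization and 0 lower after rescaling), and the list of nucleotidyltransferases other than the canonical polymerases had 3 of 9 called higher and 5 lower (4 higher and 2 lower after each scaling). Among the largest rises beside Pabpc6, Fam46c went from 7.50 and 7.58 FPKM (WT LZ) to 27.2 and 29.1 (WT PD), Fam46b from 0.896 and 0.847 to 4.67 and 4.67, and Pcf11, a CFIIm subunit, from 13.1 and 11.8 to 29.6 and 30.8. Their log2 changes were 1.77, 1.60 and 1.22 (limma, adjusted p = 0.000667, 0.00149 and 0.00878), the last losing its call without WT PD replicate 2 (1.19, adjusted p = 0.0569) and being 2.08 after rescaling to the same median. The adjusted p of Pcf11 was 0.000633 to 0.0569 over all alternatives.

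The largest falls in WT beside Pabpc4 were those of Ppp1ca, a phosphatase catalytic subunit found with the 3′ end complex, of Paip2b, an inhibitor that binds PABPs, and of Papd4, a cytoplasmic poly(A) polymerase. Ppp1ca went from 222 and 247 FPKM (WT LZ) to 2.98 and 1.32 (WT PD), Paip2b from 67.5 and 68.4 to 1.89 and 2.29, and Papd4 from 41.8 and 46.5 to 4.60 and 5.13. Their log2 changes were -6.27, -4.48 and -2.94 (limma, adjusted p = 1.66e-05, 1.93e-05 and 3.47e-05). In Cnot4-null LZ and PD, Ppp1ca was at 169 and 125 and at 75.0 and 67.0 FPKM, Paip2b at 80.6 and 56.2 and at 13.8 and 11.5, and Papd4 at 28.9 and 27.4 and at 10.1 and 8.49. For these 3 genes the Cnot4-null PD libraries lay between the WT PD and the LZ libraries.

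From LZ to PD in Cnot4-null, 5 of the 33 were called higher and 10 lower, beside 27.8% and 18.2% of all genes. Their median log2 change was -0.16 against 0.19 over all genes. Fewer of the 33 and fewer of all genes were called when any LZ or WT PD library was left out, and fewest without Cnot4-null LZ replicate 1. The scalings gave 4 higher and 12 lower (quantile normalization, beside 2974 and 4986 of all genes) and 4 higher and 17 lower (rescaling, beside 3326 and 5183 of all genes). Beside Pabpc6 the largest rises were those of Cpsf4l, a paralog of a CPSF subunit, from 0.762 and 1.59 to 18.3 and 15.2 FPKM, of Fam46c from 15.2 and 9.68 to 71.7 and 59.3, and of Fam46b from 0.319 and 0.706 to 3.80 and 4.81. Their log2 changes were 3.05, 2.33 and 1.81 (limma, adjusted p = 0.00187, 0.000621 and 0.00188), that of Fam46b being 0.90 after quantile normalization and 2.91 with a pseudocount of 0.1. The largest falls were those of Paip2b (-2.33, limma, adjusted p = 0.000545), Papd4 (-1.50, adjusted p = 0.00133), Pabpc4 and Cpsf2, a CPSF subunit, which was at 30.6 and 29.9 FPKM (Cnot4-null LZ) and 14.2 and 12.9 (Cnot4-null PD) (-1.10, adjusted p = 0.00455). Between the genotypes at LZ, limma called 0 of the 33, beside 0.0943% of all genes, and 4 had an unadjusted p under 0.05.

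Between the genotypes at PD, 16 of the 33 were called higher and 4 lower, beside 41.6% and 11.5% of all genes. Their median log2 change was 0.79 against 0.66 over all genes. Fewer of the 33 and fewer of all genes were called when any library but Cnot4-null PD replicate 1 was left out, and fewest without WT PD replicate 1 or WT PD replicate 2. The direction of the calls depended on the scaling. After quantile normalization 8 were called higher and 8 lower (2835 and 4078 of all genes). After rescaling to the same median it was 6 higher and 15 lower (3704 and 6378 of all genes). The largest rises were those of Ppp1ca (4.56, limma, adjusted p = 0.000132), Cpsf4l (2.79, adjusted p = 0.0023), Fam46d (2.62, adjusted p = 0.000765) and Paip2b (2.14, adjusted p = 0.00054). After quantile normalization and after rescaling they were 1.78 and 1.66 for Cpsf4l, 1.47 and 1.60 for Fam46d, and 1.05 and 0.97 for Paip2b. Cpsf4l was at 1.76 and 1.36 FPKM (WT PD) against 18.3 and 15.2 (Cnot4-null PD), and Fam46d at 0.777 and 1.17 (WT PD) against 11.7 and 10.5 (Cnot4-null PD), so both Cnot4-null values were far above the WT values. Beside Pabpc6 and Zc3h14, the largest falls were those of Pcf11, at 19.4 and 10.3 FPKM (Cnot4-null PD) (-1.04, limma, adjusted p = 0.0212), and Mtpap, the mitochondrial poly(A) polymerase, at 21.6 and 18.5 FPKM (WT PD) and 9.89 and 8.65 (Cnot4-null PD) (-1.03, adjusted p = 0.0135). The call of Pcf11 was lost with no filter on genes (limma, adjusted p = 0.0525) and with only the libraries compared (0.0829). It was also lost without WT PD replicate 1 (-1.07) or WT PD replicate 2 (-1.01). The change of Pcf11 was -0.61 without Cnot4-null PD replicate 2 and -2.40 after rescaling (-2.37 for Mtpap). The call of Mtpap was lost without WT PD replicate 1 (-0.93), WT PD replicate 2 (-1.14) or Cnot4-null PD replicate 2 (-0.95). The marker values of the Cnot4-null PD libraries apply beside each of these changes, and their part was not tested. The adjusted p was 0.000611 to 0.108 for Pcf11 and 0.000442 to 0.1001 for Mtpap over all alternatives.

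These results have limits. Each group has 2 libraries, and the labels do not say that they come from separate animals. FPKM are relative to all RNA of a library, so a gene can move because others did, and the direction of several changes between the genotypes at PD depended on the scaling. Uniquely mapped reads leave Nudt21 and Pabpc1 uncertain. The values are of transcript levels per gene. They do not show tail length, the choice of polyadenylation site, protein or localization. Bulk libraries do not show which cells the RNA came from, and the Cnot4-null PD libraries differed from WT PD in markers of several cell types.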

How the data were processed

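RNA of 8 libraries was compared, 2 for each of WT LZ, WT PD, Cnot4-null LZ and Cnot4-null PD. The authors aligned reads trimmed to 50 bases to mm9 with TopHat2 2.1.1, kept those mapped uniquely and deposited 1 FPKM value per gene from Cufflinks 2.2.1, and read counts were not among the deposited files. From FPKM, log2(FPKM + 1) was taken and 15899 of 23235 genes were tested, those that passed an FPKM of 1 in any library. Group means were fitted with limma 3.58.1 (empirical Bayes with a trend) in R 4.3.3, and p were adjusted by the Benjamini-Hochberg method over all genes tested. The fit was tested on simulated data. The comparisons were PD against LZ in each genotype, Cnot4-null against WT at each stage, and their interaction. Paralog differences were compared by exact permutation of the libraries.

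As alternatives, all genes were tested, or those with a mean FPKM of 5 or more, and the others were a pseudocount of 0.1, quantile normalization, rescaling to the same median, no trend, only the libraries compared, a block for the replicate number, an adjusted p threshold of 0.01, and leaving out each library, where the lone library left is assumed to vary like the other groups. The 10 genes and the pathway and marker lists were chosen with earlier results of these data known. Of the other pathway genes, the text names those with the largest rises and falls among those called whose libraries did not overlap (4 in each direction), and every poly(A)-binding protein of the list. Genomic positions and identities came from GENCODE vM1 with Python 3.11.15, numpy 2.4.6, pandas 2.3.3 and Biopython 1.88, and figures from matplotlib 3.10.9. Protein sequences were left out, since no protein table was available, and so were tests of the lists as sets.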

Additional observations from a re-analysis of the deposited data

Results flagged for a closer look

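The change from LZ to PD differed between Cnot4-null and WT for 1 of the 10 genes and 12 of the 33 others, beside 30% of all genes, by the interaction of genotype and stage in limma (adjusted p under 0.05), which is the test of that difference itself. Of all genes, 4139 were called higher and 631 lower, with 1548 higher and 1966 lower after quantile normalization and 2167 higher and 5146 lower after rescaling to the same median. The 4770 calls became 2603 without WT LZ replicate 1, 2788 and 2433 without Cnot4-null LZ replicates 1 and 2, 1801 and 1723 without WT PD replicates 1 and 2, and 7944 without Cnot4-null PD replicate 1. The 12 others (11 higher and 1 lower) became 4 higher and 3 lower after quantile normalization, 3 higher and 11 lower after rescaling, 4 with no filter on genes and 2 at the adjusted p threshold of 0.01. They fell to 4 without WT LZ replicate 1, 7 without WT LZ replicate 2, 6 without Cnot4-null LZ replicate 1, 4 without Cnot4-null LZ replicate 2, and 2 without WT PD replicate 1 as well as without WT PD replicate 2, while of the 10 genes 4 were called without Cnot4-null PD replicate 1 (2 higher and 2 lower), 3 after quantile normalization (1 higher and 2 lower) and 6 after rescaling (1 higher and 5 lower). The 8 genes of these calls that the report names are given here. On the log2(FPKM + 1) scale the interaction was 5.25 for Ppp1ca, 3.16 for Cpsf4l, 2.81 for Cstf2, 2.15 for Paip2b, 1.81 for Fam46d, 1.64 for Pabpc4, 1.44 for Papd4 and -1.39 for Pcf11. The median was 0.64 over all genes and 1.93 over X-linked genes, to which Cstf2 belongs and of which 54.2% were called higher. Against the median of all genes, the first 7 lay above it and Pcf11 below it. Of these, Ppp1ca, Cstf2 and Paip2b were called under all 16 alternatives, and the other 5 were not called at the adjusted p threshold of 0.01. After quantile normalization and after rescaling the interaction was 1.10 and 0.95 for Paip2b and 2.08 and 1.99 for Cpsf4l, and after quantile normalization it was 1.68 for Cstf2. Cpsf4l was not called without WT PD replicate 1 (adjusted p = 0.0501) or WT PD replicate 2 (0.0604), and Papd4 not without WT PD replicate 1 (0.0607) or WT PD replicate 2 (0.0517), after quantile normalization (log2 interaction 0.44, adjusted p = 0.322) or after rescaling to the same median (0.14, adjusted p = 0.691). Fam46d was called under 8 of 16 alternatives. It was not called after quantile normalization (log2 interaction 0.68, adjusted p = 0.298), after rescaling (0.76, adjusted p = 0.187) or with no filter on genes (adjusted p = 0.0581), nor without WT LZ replicate 1 (adjusted p = 0.0712), Cnot4-null LZ replicate 2 (0.0783), WT PD replicate 1 (0.106) or WT PD replicate 2 (0.0788). Pabpc4 was called under 4 of 16 alternatives. It lost the call after quantile normalization (log2 interaction 0.38, adjusted p = 0.584), after rescaling (0.99, adjusted p = 0.117), with no filter on genes (0.0968), with a mean FPKM of at least 5 (0.054) and with a block for the replicate number (0.0624), and its interaction was 3.39 with a pseudocount of 0.1. It also lost the call without WT LZ replicate 1 (0.119), Cnot4-null LZ replicates 1 and 2 (0.101 and 0.114), WT PD replicates 1 and 2 (0.132 and 0.140) or Cnot4-null PD replicate 2 (0.0724). Pcf11 was called under 8 of 16, with an interaction of -2.79 after rescaling, and lost the call with no filter on genes (0.0914) and without WT LZ replicates 1 and 2 (0.0963 and 0.107), Cnot4-null LZ replicates 1 and 2 (0.118 and 0.0985) or WT PD replicates 1 and 2 (0.128 and 0.142). The marker values given for the Cnot4-null PD libraries apply here too, and their part was not tested.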

How the results depend on the processing

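Of the values of single genes with a test, 919 kept their direction and their side of the threshold under an alternative. Another 117 kept their direction and were no longer called, and 12 kept it and became called. The other 13 changed direction, with or without a change of call. The cause was not tested for any of them beyond what the alternative itself does. With only the libraries compared, calls were lost for the stage changes of Pabpn1 in WT and of Pabpc1, Cpsf6 and Pabpc4 in Cnot4-null. The call of Cpsf6 between the genotypes at PD was lost there too. That of Pabpn1 in WT was also lost with no filter on genes and with no trend. Quantile normalization turned the stage change of Pabpn1 in Cnot4-null to -0.032, and the genotype changes at PD of Cpsf6 and Nudt21 to -0.050 and 0.14. Rescaling to the same median turned the WT stage changes of Pabpn1 and Nudt21 to 0.16 and 0.27, those in Cnot4-null of Pabpn1 and Cstf2t to -0.50 and -0.18, and the genotype changes at PD of Papola, Pabpn1 and Cpsf6 to -0.97, -0.25 and -0.25. The stage change of Pabpn1 in Cnot4-null was -0.036 without Cnot4-null LZ replicate 2 (-0.036 to 0.20 without each library), and the genotype change of Papolg at PD was 0.22 without WT PD replicate 2 and 0.34 without Cnot4-null PD replicate 1 (-0.58 to 0.34 without each library).

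Among counts of called genes, no filter gave 31 of all genes between the genotypes at LZ (15 with it) and 4 other pathway genes for the interaction (12 with it). A mean FPKM of at least 5, with fewer genes tested, gave 5219 of all genes between the genotypes at PD (from 8449). Quantile normalization gave 3 of the 10 genes (from 1) and 7 other pathway genes for the interaction. Rescaling to the same median gave 8 of the 10 genes between the genotypes at PD (from 4), and 6 of the 10 and 7313 of all genes for the interaction (from 4770). With both scalings most genes called between the genotypes at PD were lower, 4078 against 2835 higher with quantile normalization and 6378 against 3704 with rescaling, whereas 6619 of 8449 were higher without them. With fewer libraries, only those compared, there were 3955 of all genes, 5 of the 10 and 8 others from LZ to PD in Cnot4-null, 4 of all genes between the genotypes at LZ, and 2 of the 10 between the genotypes at PD. A block for the replicate number gave 2 of the 10 genes for the interaction, and the deviations of libraries with the same number correlated from -0.0651 to 0.194 between groups, which does not establish a pairing.

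An adjusted p threshold of 0.01, stricter by construction, gave 15 other pathway genes for the stages in WT, and 4286 of all genes, 5 of the 10 and 8 others in Cnot4-null. It gave 8 of all genes between the genotypes at LZ, 4811 of all genes, 2 of the 10 and 12 others between the genotypes at PD, and 1709 of all genes and 2 others for the interaction. Leaving out each library in turn gave 14 to 27 other pathway genes for the stages in WT, and 4651 to 8238 of all genes, 5 to 8 of the 10 and 7 to 17 others in Cnot4-null. It gave 9 to 25 of all genes between the genotypes at LZ, 4073 to 9932 of all genes, 1 to 6 of the 10 and 9 to 22 others between the genotypes at PD, and 1723 to 7944 of all genes, 1 to 4 of the 10 and 2 to 16 others for the interaction. Between the genotypes at LZ, limma called 0 of the 10 and 0 of the 33 others under all alternatives, with 1 and 4 at an unadjusted p under 0.05 in the fit reported. Genes above 1 FPKM numbered 11734 and 11823 (WT LZ), 11822 and 11538 (Cnot4-null LZ), 10103 and 10076 (WT PD), and 13887 and 14249 (Cnot4-null PD). The part of this difference in the calls was not tested. The deposited files hold no counts, and what depth limits was not measured.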
